A study of Bos taurus with 30 samples.

Results

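Testis RNA of Holstein-Friesian bull calves was compared between 15 library columns whose names end in H and 15 whose names end in L. These are all 30 library columns of the deposited expression table, chosen by the last letter of the column name, and the series lists 30 calves. The sources used here give no key to the letters, and none of the 30 column names is the title of a calf, so no column was joined to a single calf. The comparison is therefore of H columns with L columns and is not stated as one between planes of nutrition.

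The study fed calves of this dairy breed either a High or a Moderate plane of nutrition from 2 to 12 weeks of age, and all testes were taken at 12 weeks. Daily feed on the High plane was 1.5 kg of milk replacer (10 litres) and concentrates without limit, and on the Moderate plane 0.5 kg of replacer (4 litres) and 0.5 kg of concentrates. The labels name no other treatment, no litter, no date and no batch, and 1 breed. Each of the label fields on diet put 15 calves on each plane, but the fields named opposite planes for 18 of the 30 calves. For that reason too, the labels could not tell which plane a letter stands for.

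The testis of a calf of this age is still immature. Its cords hold Sertoli cells, which multiply before puberty and whose final number limits later sperm output, together with germ cells that have not entered meiosis. Leydig cells between the cords make androgen under luteinising hormone, and richer feeding in early life is known in cattle for earlier gonadotrophin rises and larger testes. Whole pieces of tissue mix all these cell types, so fewer cells of a type and less RNA per cell cannot be told apart in any value given here.

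Genes are known in the table only by Ensembl cattle identifiers. The RefSeq table of 37063 cattle genes gave a symbol for 0 of the 27607, since 0 of its genes carried an Ensembl identifier. The 22 gene lists drawn up for Leydig, Sertoli, germ, myoid and immune cells and for growth and lipid pathways, with 288 symbols, were therefore not counted. The tissue was not checked against markers of testis cells either, and only 4 identifiers are named, without roles.

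Per library, 16838844 to 24791806 reads in genes were recovered from the deposited values. The H columns held 20558003 reads ± 2067339 (SD, n = 15) and the L columns 20202838 reads ± 2244032 (SD, n = 15). The difference of means, 355165 reads, lay within that spread (permutation test, two-sided, 100000 resamples, p = 0.654). A read was found for 19945 genes ± 346 (SD, n = 15) in H columns and for 19955 genes ± 644 (SD, n = 15) in L columns (permutation test, p = 0.963). Each of the 8 library-level measures compared in this way had an adjusted p of at least 0.506. The nearest to the threshold was the share of reads in the 10 most abundant genes, 8.71% ± 0.684 in H and 8.08% ± 1.07 in L columns (SD, n = 15 each, permutation test, unadjusted p = 0.0633).

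The main axis of variation among the libraries did not follow the letters. The first principal component of the log2 levels of 16073 genes held 51.9% of the variance, and the second held 7.1%. The H columns ranged from -109 to 43.8 on the first component, with a median of 8.6, and the L columns from -185 to 46.1, with a median of 21.7. Both letters covered most of the same range, and their means differed by 2.09 against SDs of 40.8 and 63.2 (n = 15 each, permutation test, p = 0.92). On the second component the means differed by 8.11 (n = 15 each, permutation test, p = 0.26).

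**Figure D1:**
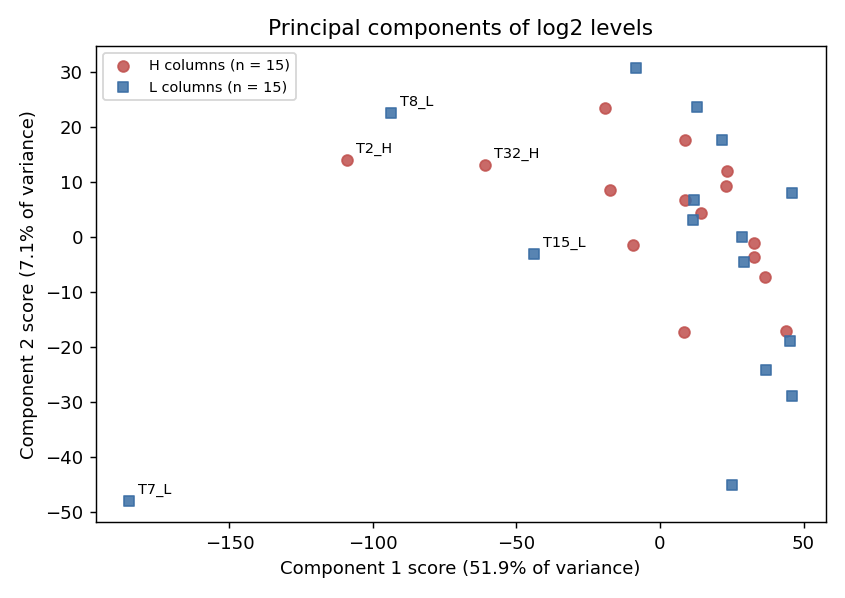
Each point is 1 library, placed by its scores on the first component (x, 51.9% of the variance) and the second (y, 7.1%) of the log2 levels, with no unit; circles are H columns and squares are L columns. Libraries of both letters lie together between -19.2 and 46.1 on the first component, and 5 named libraries of both letters lie below that.

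Libraries T7_L, T8_L, T15_L, T2_H and T32_H stood apart at the low end of the first component. They were also the 5 libraries with a scaling factor under 0.95, where the trimmed mean of M-values (TMM) factor corrects a library for a few gene groups taking an unusual share of its reads. T7_L had the lowest factor, 0.599, and T2_H the next, 0.805, while the other 25 libraries had factors from 0.963 to 1.14. T7_L held reads for 18017 genes, T2_H for 19077, T32_H for 19464 and T15_L for 19483, against 19545 to 20618 in the other 25 libraries. T8_L, with 19562 genes, was inside that range.

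Across the 30 libraries the factor and the number of genes detected had a Pearson correlation of 0.946 and a Spearman correlation of 0.835 (permutation test, p = 1e-05 for both, the smallest that 100000 resamples give). It was the only relation between library measures tested. Both measures were computed from the same reads and are not independent, so no conclusion is drawn from the p-value. Without T2_H and T7_L, the 2 libraries farthest from the median factor, Pearson's r was 0.844, and within the letters it was 0.889 in H and 0.963 in L columns (n = 15 each).

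**Figure D2:**
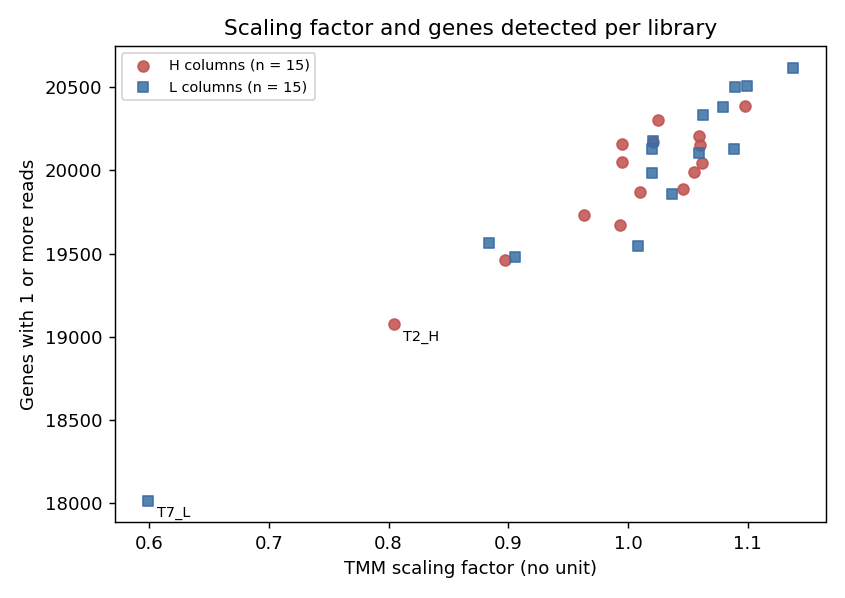
Each point is 1 library, with its TMM scaling factor (x, no unit) and the number of genes with 1 or more reads (y); circles are H columns and squares are L columns. T7_L, at 0.599 and 18017 genes, and T2_H, at 0.805 and 19077 genes, lie below the other libraries of both letters.

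T7_L departed most from the other columns of its letter. In that library 2646 of the 16073 genes lay more than 4-fold below the median of the other L columns and 1158 lay more than 4-fold above it. T2_H held 979 genes more than 4-fold below the median of the other H columns and 64 above it, and T8_L held 857 below and 54 above among L columns. T32_H held 211 below and 31 above, and T15_L 168 below and 31 above. In the 25 libraries with higher factors, 9 to 169 genes lay that far below and 8 to 95 that far above. T15_L was inside both ranges, T2_H, T8_L and T32_H were inside the second only, and T7_L was outside both.

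The overlap of the genes that were low differed between pairs of these libraries from the 2 letters. T2_H and T8_L, 1 library of each letter measured against different sets of libraries, had 596 such genes in common, which is 60.9% of the T2_H genes and 69.5% of the T8_L genes. T2_H and T7_L shared 800, or 81.7% of the T2_H genes and 30.2% of the T7_L genes, and T2_H and T15_L shared 96, or 9.81% and 57.1%. T32_H shared 147 with T7_L (69.7% of the T32_H and 5.56% of the T7_L genes), 149 with T8_L (70.6% and 17.4%) and 58 with T15_L (27.5% and 34.5%). Among all 16073 genes, those low in T7_L were 16.5%, those low in T2_H 6.09%, those low in T8_L 5.33%, those low in T32_H 1.31% and those low in T15_L 1.05%. Of the genes that were high, T2_H shared 5 with T8_L (7.81% and 9.26%) and 35 with T7_L (54.7% and 3.02%). T2_H and T15_L shared 9 (14.1% and 29%). T32_H shared 13 with T8_L (41.9% and 24.1%), 8 with T7_L (25.8% and 0.691%) and 4 with T15_L (12.9% of each). Those high in T7_L were 7.2% of all 16073 genes, those high in T2_H 0.398% and those high in T8_L 0.336%. Those high in T32_H and those high in T15_L were 0.193% each. The part of these 5 libraries in the comparison of letters was measured by leaving them out, as given below.

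Gene by gene, no difference between H and L columns passed the test. With edgeR's quasi-likelihood test on the recovered reads and Benjamini-Hochberg adjustment, 0 of 16073 genes tested (0%) had an adjusted p under 0.05, and the lowest adjusted p was 0.167. At an unadjusted p under 0.05 there were 826 genes, or 5.14%, of which 365 (2.27%) had higher and 461 (2.87%) had lower values in H. An unadjusted p under 0.01 was reached by 223 genes (1.39%) and one under 0.001 by 39 genes (0.243%). With upper quartile scaling the split was 445 higher and 355 lower, so the balance of directions among these genes turned with the scaling. In no tested gene were all H columns above or below all L columns.

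Other count models called a few genes. DESeq2, given the same reads and genes and run at its default settings, called 13 genes at an adjusted p under 0.05 (0.0809%). Of the 13, 5 had higher and 8 had lower values in H. Their size ran from 0.38 to 2.31 on the log2 scale without regard to sign. Limma, run as limma-trend on log2(value + 1) or log2(value + 0.1) and as limma-voom, called 0 genes. In these fits 717 (4.46%), 724 (4.5%) and 749 (4.66%) genes, in that order, had an unadjusted p under 0.05. All 13 DESeq2 calls had the same direction in edgeR, where their adjusted p-values ran from 0.167 to 0.353. With 1 surrogate variable, a computed covariate that here followed the first component (Pearson's r = -1 over the 30 libraries), edgeR called 3 genes (0.0187%), of which 2 were among the DESeq2 calls. Limma-voom with library weights called 1 gene (0.00622%), which DESeq2 also called, and edgeR with 1 surrogate variable and without the 5 libraries that stood apart called 1 gene (0.00618%), which it did not.

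**Figure D3:**
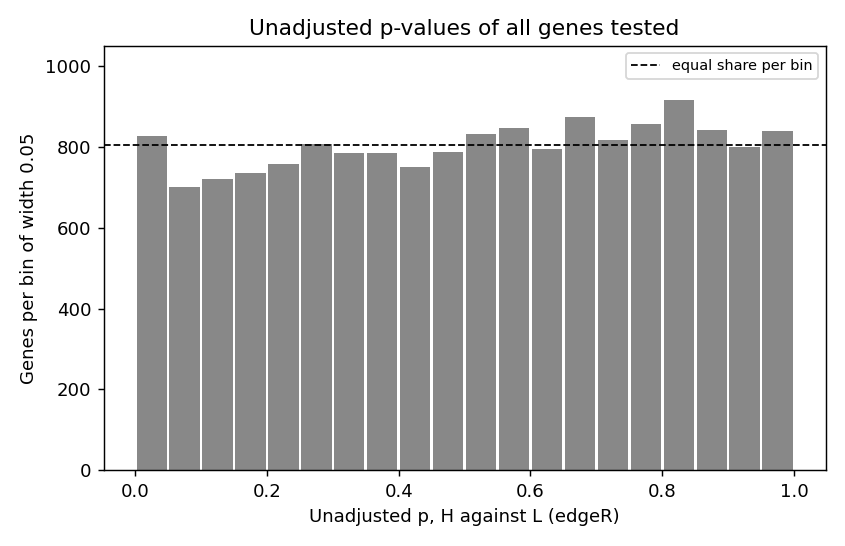
Bars count the genes tested in each bin of unadjusted edgeR p, H against L (x, bins of 0.05; y, number of genes), and the dashed line is an equal share per bin. The lowest bin holds 826 of 16073 genes, or 5.14%, near the line, and the bins at higher p hold between 701 and 916.

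The differences were small for most genes. The median log2 difference, H minus L, was -0.041, with a 5th percentile of -0.37 and a 95th percentile of 0.24. The median was -0.015 without T7_L, -0.003 in limma-voom and 0.004 in limma-trend on log2(value + 0.1), so the lean toward lower values in H changed with that library and with the model. The median standard error was 0.168. The estimate was beyond 2-fold in 63 genes (0.392%), 14 higher and 49 lower in H, and beyond 4-fold in 6 genes, 2 higher and 4 lower.

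The intervals show how closely each gene's difference was bounded, not which sizes the adjusted test would call. The 95% interval of the difference, unadjusted for the number of genes, lay wholly within 2-fold in either direction for 15240 genes (94.8%) and within 1.5-fold for 11032 genes (68.6%). It lay within 1.2-fold for 2543 genes (15.8%). For most genes the interval thus reached beyond 1.2-fold, so the absence of a difference of that size is not shown.

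Intervals were widest for genes with low values. In the 4019 genes with the lowest means, 0.392 to 4.57 in the deposited unit (TMM-scaled CPM, reads scaled to a common library size), the median half-width of the interval was 0.481 on the log2 scale. In the 4018 genes with the highest means, 53.7 to 20200, it was 0.237. An unadjusted p under 0.05 was reached by 5.65% of the former and 5.28% of the latter, and by 6.17% and 3.46% of the 2 sets of 4018 genes between them, in rising order of the mean. The deposited unit is not per length, so levels are not compared between genes.

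**Figure D4:**
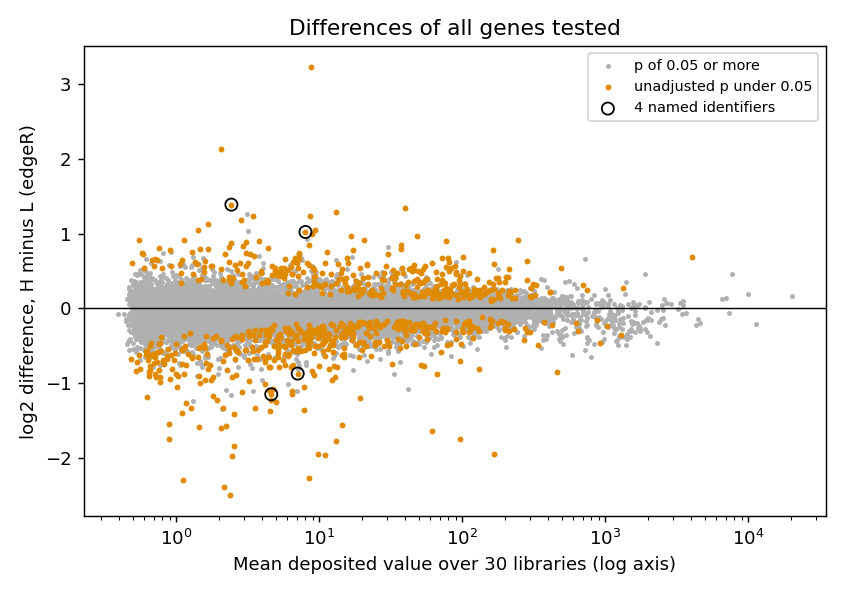
Each point is 1 of 16073 genes, with its mean deposited value over 30 libraries (x, log axis, TMM-scaled CPM) and its log2 difference, H minus L (y); orange marks an unadjusted p under 0.05 and rings mark the 4 named identifiers. Most points lie close to 0, with 63 genes beyond 1 on the log2 scale, and no gene had an adjusted p under 0.05.

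The 4 identifiers with the lowest p in each direction, a pair on each side, illustrate what the top of the ranking looks like in single libraries. They were picked by that p, so no conclusion is drawn from their sizes or unadjusted 95% intervals. ENSBTAG00000008576 had deposited values from 1.42 to 10.1 in H columns, with a median of 2.96, and from 0.131 to 2.43 in L columns, with a median of 1.37. All 15 H columns were above the L median and 10 of them were above every L column, yet the letters overlapped. T19_H was the highest library and T15_L, with 2 reads, the lowest. The edgeR log2 difference was 1.39 ± 0.27 (SE, n = 15 each, 95% interval 0.83 to 1.94), with an unadjusted p of 1.604e-05 and an adjusted p of 0.167.

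ENSBTAG00000012036 had values from 4.78 to 31.5 in H columns, with a median of 8.92, and from 3.36 to 9.11 in L columns, with a median of 4.67. All 15 H columns exceeded the L median, 7 exceeded every L column, and T19_H was again the highest. The edgeR log2 difference was 1.02 ± 0.22 (SE, n = 15 each, 95% interval 0.58 to 1.46) at an adjusted p of 0.187.

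Lower values in H headed the other side. ENSBTAG00000046662 had values from 1.47 to 4.83 in H columns, with a median of 2.7, and from 2.32 to 16.5 in L columns, with a median of 6.3. The H columns were all below the L median, and 10 L columns were above every H column. Its highest library was T7_L, 1 of the 5 that stood apart, and its highest H column was T2_H, another of them. The edgeR log2 difference was -1.15 ± 0.23 (SE, n = 15 each, 95% interval -1.62 to -0.67) at an adjusted p of 0.167.

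ENSBTAG00000048659 had values from 3.27 to 6.89 in H columns, with a median of 4.59, and from 5.07 to 20.1 in L columns, with a median of 7.53. All 15 L columns were above the H median, 8 H columns were below every L column, and T7_L was again the highest. The edgeR log2 difference was -0.87 ± 0.18 (SE, n = 15 each, 95% interval -1.24 to -0.51) at an adjusted p of 0.167. DESeq2 called all 4 identifiers, at adjusted p-values of 0.00391 and 0.01 for the pair with higher values in H and 0.00395 and 0.0064 for the pair with lower values, in the order given here.

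**Figure D5:**
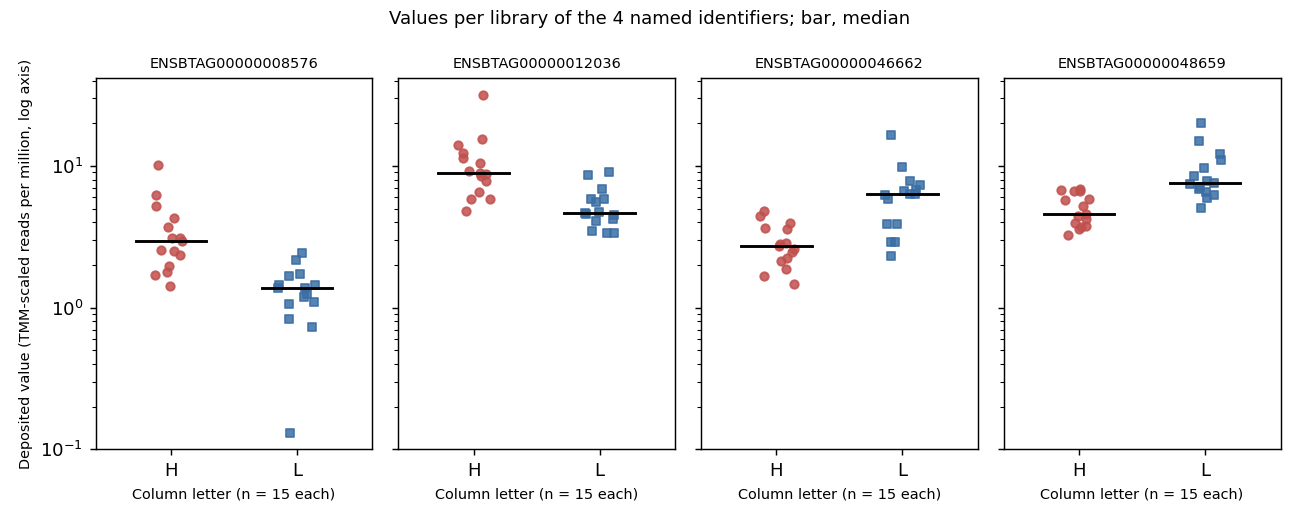
Each point is the deposited value of 1 library (y, TMM-scaled CPM, log axis) for the 4 identifiers, by column letter (x, 15 libraries each), and bars are medians. The medians are 2.96 against 1.37, 8.92 against 4.67, 2.7 against 6.3 and 4.59 against 7.53 for H against L from left to right, and in each panel some libraries of the 2 letters overlap.

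Leaving out the 5 libraries that stood apart did not bring an edgeR call. Over the 13 H and 12 L columns that remained, edgeR called 0 of 16179 genes (0%), with a lowest adjusted p of 0.163. The genes with an unadjusted p under 0.05 came to 1934 (12%), 1001 with higher and 933 with lower values in H, against 826 with all libraries. Leaving out T7_L alone gave 1129 such genes (6.99%), 599 higher and 530 lower, and 0 calls.

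The letter held little of the variance of a typical gene. It took a median of 1.18% of a gene's variance in log2 level over the 30 libraries, and 44% in the gene where it took most. The libraries that stood apart were included, and the share that letters assigned at random would take was not computed. The median is therefore given only as a description. The first component took a median of 45.2%, and more than 50% in 7496 genes (46.6%), as a description, since the component was computed from the same genes. Of the letters, L had the wider spread: the median SD of a gene's log2 level was 0.381 in H and 0.509 in L columns. T7_L decided that order, since without it the L columns had a median SD of 0.376. Without the libraries scaled under 0.95 in both letters, the median SD was 0.302 in 13 H and 0.276 in 12 L columns.

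Of the 27607 genes listed, 3338 had no read in any library and 16226 had a read in all 30. Reads were found in H columns alone for 706 genes and in L columns alone for 827. No such gene was spread through its letter: 503 and 572 of them, respectively, had reads in 1 library, and the most widely found occurred in 5 of 15 H columns and in 7 of 15 L columns.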

How the data were processed

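Testis RNA was sequenced as libraries from polyadenylated RNA made with a strand-preserving kit, per the labels' protocols. Tools listed in the submitters' processing notes are STAR 2.6.1, edgeR 3.5, R 3.4, cutadapt 2.6 and FastQC 0.11.8, with the build UMD3.1. The labels and the table do not name the counting program, its strand setting or the annotation. The deposited values are a normalised signal, reads divided by the authors by 1 constant per library: all 598503 values above 0 (100%) were, within 0.001, a whole number of times the lowest value above 0 in the same column. That constant equalled, to the printed precision, the library size times edgeR's TMM factor computed here from all rows.

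Reads were recovered by dividing each column by its smallest value above 0 and rounding. Genes were filtered with filterByExpr and tested in R 4.3.3 with edgeR 4.0.16 (TMM scaling, robust quasi-likelihood fit, letter as the only term). Principal components used log2 CPM with a prior count of 2. Standard errors were taken from the difference and its F value. Alternatives used DESeq2 1.42.0, limma 3.58.1 and sva 3.50.0. The code was tested on simulated data. No 2 libraries agreed within sampling noise (lowest chi-square per degree of freedom 14.53 over 435 pairs). With no symbols, the rule for named genes took the 2 identifiers with the lowest p in each direction. The comparison, lists and tests were chosen with earlier results on these data known. Columns are taken as separate calves, which the table does not state; otherwise p-values measure only the spread between libraries.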

Additional observations from a re-analysis of the deposited data

How the results depend on the processing

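Of 43 other fits, 39 also gave 0 genes with an adjusted p under 0.05. Among them were the 30 that left out each library in turn (lowest adjusted p of a fit 0.0747 to 0.306). Each of the 30 kept all libraries but 1 of the edgeR fit of the report, so they are not independent of it. Of the 10 other planned fits, 8 gave 0 genes. DESeq2 gave 13 genes, 5 higher and 8 lower in H. With 1 surrogate variable there were 3, of which 2 were higher and 1 was lower. Of the 3 fits chosen after seeing the data, leaving out the 5 libraries scaled under 0.95 gave 0 genes. Library weights in limma-voom gave 1 gene, with lower values in H. The fit with 1 surrogate variable and without those 5 libraries gave 1 gene, with higher values. The last was not among the DESeq2 calls. Neither of these single genes is among the 4 named. The cause of these changes was not tested. In the edgeR fit of the report, thresholds of 0.01 and 0.1 also gave 0 genes; they were not applied to the other fits. Genes at an unadjusted p under 0.05 numbered 2004 (12.5%) with the surrogate variable and 1919 (11.9%) with weights. They numbered 1866 (11.5%) with the surrogate variable without those 5 libraries, and 1514 of 24269 genes (6.24%) with no filter. In the edgeR fit of the report they were 826 (5.14%). Over the 30 fits they ranged from 671 (4.16%, without T19_H) to 1129 (6.99%, without T7_L). The 4 named identifiers kept their direction in all 43 fits. They were picked by their low p on these same reads, so a kept direction is no independent support. Log2 differences ran from 0.88 to 1.49 for ENSBTAG00000008576, 0.81 to 1.11 for ENSBTAG00000012036, -1.22 to -0.84 for ENSBTAG00000046662 and -0.91 to -0.7 for ENSBTAG00000048659. The differences in depth and in genes detected changed sign with the measure, against 355165 reads and -9.93 genes: H minus L was -15807 for totals of the deposited values and 49.3 genes at 10 or more reads (permutation tests, p = 0.86 and 0.776). No paired analysis was possible because the columns carry no replicate numbers shared by both letters and were not joined to calves.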
